A study of Mus musculus with 12 samples.

Results

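The regulators of G protein signalling described here are 10 mouse genes, Rgs2, Rgs4, Rgs7, Rgs8, Rgs10, Rgs12, Rgs14, Rgs16, Rgs17 and Rgs20, picked by name out of the 28842 genes of the deposited table. All 10 were measured in every library, and all 10 stood among the 13016 genes tested (a mean of at least 1 FPKM, a level that divides reads by transcript length and by the library total). RNA was sequenced from prefrontal cortex of male C57BL/6J mice, a standard inbred strain, with the genotype labelled WT in both groups. The cocaine group (6 libraries) was injected with 15 mg/kg cocaine through adolescence, on postnatal days 28 to 42, and the saline group (6 libraries) with saline over the same days. As adults, all animals went through conditioned place preference: a pre-test (day 75), training sessions preceded by 1 mg/kg cocaine (days 76 and 77) and the test itself (day 78), after which tissue was taken within 30 to 60 min. The groups thus differed by the adolescent treatment and shared the adult one. Whether every library stands for its own animal is not stated in the labels, and the tests below use the spread among libraries, which may be technical.

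RGS proteins bind the active, GTP-bound alpha subunit of heterotrimeric G proteins and speed its GTP hydrolysis, which shortens the signal of the receptor upstream. In brain they act on dopamine, opioid, muscarinic, serotonin and glutamate receptors, and several are known to change after stimulants or neuronal activity. The members fall into subfamilies: the small R4 proteins (Rgs2, Rgs4, Rgs8, Rgs16), the R7 protein Rgs7, the R12 proteins (Rgs10, Rgs12, Rgs14) and the RZ proteins (Rgs17, Rgs20).

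Depth was 16.7 to 19.9 M reads per library, and the member with the fewest reads, Rgs16, had 92 in its lowest library. The tissue label was checked against markers: Slc17a7, the vesicular glutamate transporter of cortical excitatory neurons, stood at 300.5 to 422 FPKM in cocaine libraries and 321 to 402 FPKM in saline libraries. Mbp, an oligodendrocyte marker, was far less even, at 157 to 582 FPKM in cocaine and 97.5 to 724 FPKM in saline libraries. The library saline 5 stood apart, with 11208 normalised reads of Ttr, a choroid plexus transcript, against at most 13.2 in every cocaine library. The tissue was bulk, so fewer cells of a type and less RNA per cell cannot be told apart.

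Rgs4 was by far the most abundant member. Rgs4, an R4 protein that acts on Gi and Gq and is known to be highly expressed in cortical neurons, averaged 124 ± 11.4 FPKM over the 12 libraries (SD), with 308 of the 13016 tested genes above it. It made up 59.1 percent of the summed FPKM of the 10 members. Rgs2, the R4 protein that prefers Gq, came next at 17.3 ± 2.00 FPKM, and Rgs4 stood 7.14 times higher. Rgs2 exceeded Rgs7 (15.0 ± 0.839 FPKM) in all 12 libraries, although their ranges overlapped. Rgs7 and Rgs14 (14.5 ± 1.61 FPKM) could not be ordered, since Rgs7 was the higher of the pair in 6 of 12 libraries. Rgs10 (9.27 ± 2.60 FPKM), Rgs8 (8.24 ± 1.28 FPKM) and Rgs17 (7.80 ± 1.76 FPKM) lay within their spread of each other: Rgs10 exceeded Rgs8 in 7 libraries and Rgs8 exceeded Rgs17 in 8. Rgs20 (5.24 ± 0.460 FPKM), Rgs12 (4.40 ± 0.555 FPKM) and Rgs16 (3.98 ± 1.02 FPKM) were the lowest, with Rgs20 above Rgs12 in 10 libraries and Rgs12 above Rgs16 in 11.

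**Figure D1:**
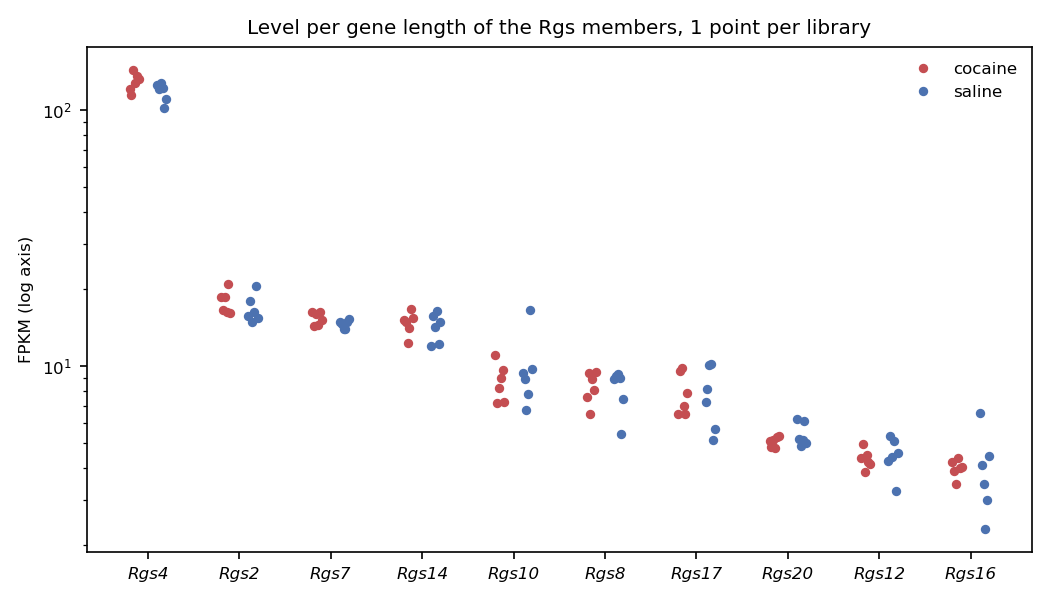
Level per gene length (FPKM, log axis) of each member, ordered by its mean over 12 libraries, with 1 point per library and cocaine left of saline. Rgs4, at 102 to 144 FPKM, stands alone above the other 9 members, whose highest library is at 21.0 FPKM.

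Of the 10 genes, 6 lie on chromosome 1 (GRCm38). Rgs4 (ENSMUSG00000038530) spans chr1:169741477-169747642 and Rgs2 (ENSMUSG00000026360) chr1:143999338-144004161, both compact genes on the minus strand. Rgs7 (ENSMUSG00000026527), at chr1:175059087-175492500 on the minus strand, is the longest. Rgs20 (ENSMUSG00000002459) lies at the other end of the chromosome, at chr1:4909576-5070285 on the minus strand. Rgs8 (ENSMUSG00000042671) spans chr1:153653025-153700323 and Rgs16 (ENSMUSG00000026475) chr1:153740349-153745468, and they are neighbours on the plus strand with 40.0 kb between them. Outside chromosome 1 lie Rgs10 (ENSMUSG00000030844, chr7:128373621-128418758, minus strand) and Rgs17 (ENSMUSG00000019775, chr10:5825663-5922400, minus strand). Rgs12 (ENSMUSG00000029101, chr5:34949445-35039644) and Rgs14 (ENSMUSG00000052087, chr13:55369732-55384687) are both on the plus strand.

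Promoters were available from RefSeq (GRCm38.p6) for 8 members, as 11 windows that run from 250 bases before to 50 bases after an annotated start. The 4 windows below are those of the members with the highest levels, Rgs4 and Rgs2, and of Rgs10 and Rgs17, the pair that moved in opposite directions between libraries. They are written 5′ to 3′ on the strand of the gene. Capitals mark TGACG (a part of the cyclic AMP response element TGACGTCA), the CCAAT box, the TATA box (TATAAA) and the AP-1 motif (TGANTCA), searched on both strands. The Rgs4 window is chr1:169747593-169747892 (minus strand), that of Rgs2 chr1:144004100-144004399 (minus strand), that of Rgs10 chr7:128418123-128418422 (minus strand) and that of Rgs17 chr10:5922351-5922650 (minus strand).
Rgs4: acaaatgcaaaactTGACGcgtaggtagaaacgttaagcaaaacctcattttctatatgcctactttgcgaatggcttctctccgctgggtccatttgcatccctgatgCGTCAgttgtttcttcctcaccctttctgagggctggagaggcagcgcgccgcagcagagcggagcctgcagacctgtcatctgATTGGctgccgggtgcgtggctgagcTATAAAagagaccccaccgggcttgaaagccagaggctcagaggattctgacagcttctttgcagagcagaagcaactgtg
Rgs2: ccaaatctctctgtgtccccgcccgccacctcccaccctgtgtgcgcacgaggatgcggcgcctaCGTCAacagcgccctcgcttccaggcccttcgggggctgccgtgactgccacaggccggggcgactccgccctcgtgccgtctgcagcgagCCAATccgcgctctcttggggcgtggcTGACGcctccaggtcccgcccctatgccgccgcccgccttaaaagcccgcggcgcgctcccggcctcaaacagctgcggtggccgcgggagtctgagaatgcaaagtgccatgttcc
Rgs10: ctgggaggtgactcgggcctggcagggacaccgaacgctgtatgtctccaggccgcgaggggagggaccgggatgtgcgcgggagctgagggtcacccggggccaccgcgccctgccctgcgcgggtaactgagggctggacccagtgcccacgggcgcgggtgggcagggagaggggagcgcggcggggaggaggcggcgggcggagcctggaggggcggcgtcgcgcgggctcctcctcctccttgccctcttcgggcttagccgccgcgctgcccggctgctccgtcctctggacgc
Rgs17: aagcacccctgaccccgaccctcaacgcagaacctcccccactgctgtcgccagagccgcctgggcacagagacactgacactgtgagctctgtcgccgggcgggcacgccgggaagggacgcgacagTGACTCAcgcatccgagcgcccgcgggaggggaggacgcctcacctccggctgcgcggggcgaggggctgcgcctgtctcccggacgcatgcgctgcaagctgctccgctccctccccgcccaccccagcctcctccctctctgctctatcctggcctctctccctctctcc

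The Rgs4 window holds TGACG at -236 and, on the other strand, at -141 (first base, with the start site as 0). It also holds a CCAAT box at -57, on the other strand, and a TATA box at -31, on the strand of the gene. Rgs2 has TGACG at -185, on the other strand, and at -67, with a CCAAT box at -94. Of the 8 members with windows, 4 (Rgs2, Rgs4, Rgs8 and Rgs12) hold TGACG in a window. Of the 32851 mouse promoter windows of this length 20.8 percent hold it. That is a share of windows, while Rgs8 and Rgs12 have several windows each, so the count of members cannot be set against it. The full palindrome TGACGTCA, present in 1.79 percent of all windows, was in 0 of the 11 windows of the members. The Rgs17 window has an AP-1 match at -122, and a window of Rgs12 has one at -22 (7.81 percent of all windows hold one). The window of Rgs10 holds none of the 4 capitalised motifs but matches the GC box GGGCGG (35.7 percent of all windows) at -50 and -35. The GC box also matched in the Rgs17 window, at -152 and, on the other strand, at -6. With Rgs2, Rgs12 and Rgs16, 5 of the 8 members with windows had a match, a count of members that again cannot be set against the share of windows. CCAAT was found in 37.4 percent and TATAAA in 13.6 percent of all windows.

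Between the cocaine and the saline group no member passed the test, and every difference was small. Of the 10 members 7 were higher and 3 lower in cocaine libraries, with a median of 0.05 on the log2(value + 1) scale, against a median of 0.01 and 53.7 percent higher over all 13016 tested genes. These directions were not stable: 4 of the 7 higher members (Rgs8, Rgs14, Rgs16 and Rgs17) and 2 of the 3 lower ones (Rgs10 and Rgs12) turned sign when 1 library was left out. By limma, 0 members had an adjusted p under 0.05 (0 percent of all tested genes did) and 0 had an unadjusted p under 0.05 (1.14 percent of all tested genes did, 0.676 percent higher and 0.469 percent lower). In the authors' deposited table, too, 0 members had an adjusted p under 0.05 (0.0104 percent of its genes had), and its log2 fold changes for the members ran from -0.17 for Rgs10 to 0.13 for Rgs4. By edgeR and by DESeq2 on recovered reads 0 members passed as well, and 0 of the 10 had groups that did not overlap (0.0768 percent of all tested genes). The 95% intervals show what the data leave room for: across the 10 members they ran from 0.707-fold for Rgs10 to 1.40-fold for Rgs16, on that scale.

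**Figure D2:**
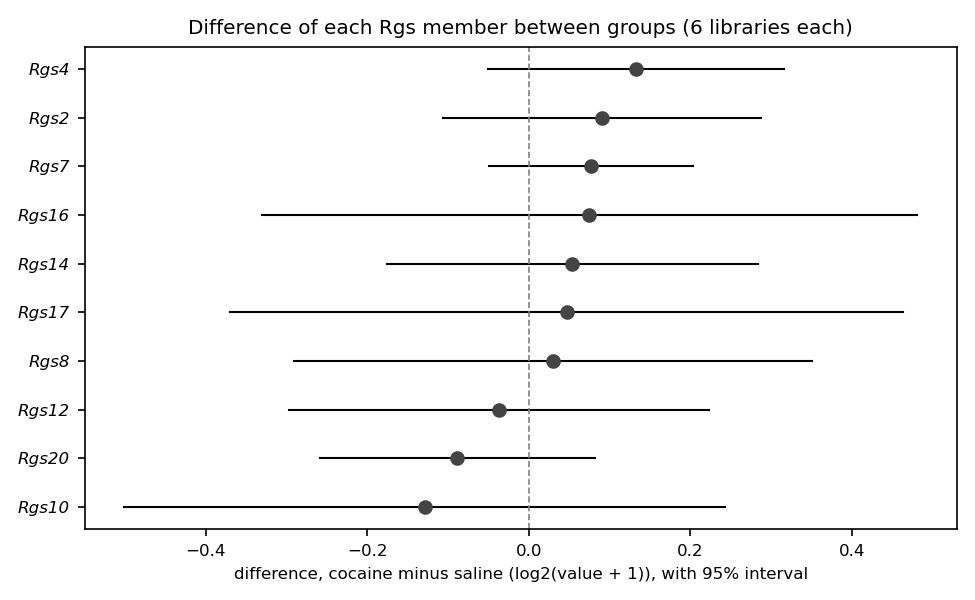
Difference between groups for each member (points, cocaine minus saline, log2(value + 1)) with its 95% interval from limma (lines), 6 libraries a group. All 10 intervals include 0, from the narrow one of Rgs7 (-0.05 to 0.20) to the wide ones of Rgs16 (-0.33 to 0.48) and Rgs17 (-0.37 to 0.46).

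Among the R4 members Rgs4 had the smallest p by limma. Its normalised read count (reads divided by a size factor for each library) was lowest at 6494, had a median of 7072 and was highest at 7757 in cocaine libraries, against 5413, 6701 and 7251 in saline libraries. The groups overlapped, with 3 of 6 cocaine libraries above every saline library and saline 5 and saline 6 lowest of all. The means were 7046 ± 495 in cocaine and 6448 ± 705 in saline libraries (SD, n = 6 each; log2 0.13 ± 0.09 SE, exact permutation p = 0.141, two-sided), and the interval ran from 0.965-fold to 1.25-fold. Leaving out saline 5 brought the log2 difference to 0.08, a move of more than 1.5 times.

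Rgs2 is known as a gene that neuronal stimulation induces within minutes in rodent brain. It stood at 1021, 1139 and 1316 normalised reads (lowest, median, highest) in cocaine libraries and at 948, 1030 and 1280 in saline libraries. All but 1 of the cocaine libraries lay above the saline median, while saline 5 was higher than 5 of the 6 cocaine libraries. The difference was 0.09 ± 0.09 (log2, SE; exact permutation p = 0.327). The mean of 19 rapid immediate-early genes, a list chosen with earlier results of these data known and given here as a description, was 0.16 ± 0.14 in cocaine and -0.16 ± 0.14 in saline libraries (log2 deviation, SD, n = 6 each).

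Rgs8 and Rgs16, the R4 neighbours on chromosome 1, had differences smaller than their spread between libraries. Rgs8, which acts on Gi and Go, had 1090, 1413 and 1648 normalised reads (lowest, median, highest) in cocaine libraries and 898, 1520 and 1647 in saline libraries, and the low ends came from cocaine 3 and saline 5. Rgs16, an R4 protein that is under circadian control in the suprachiasmatic nucleus, had 140, 166 and 177 in cocaine libraries and 97.7, 160 and 265 in saline libraries. The cocaine libraries of Rgs16 all lay inside the saline range. Their differences were 0.03 ± 0.15 for Rgs8 and 0.07 ± 0.19 for Rgs16 (log2, SE). Without saline 5 that of Rgs8 was -0.091, and without saline 4 that of Rgs16 was -0.057. On recovered reads, Rgs16 differed by 0.0074 in edgeR and 0.0060 in DESeq2. An antisense transcript covers 236 of the 2339 exon bases of Rgs16, and the strand setting of the counting is not given in the sources used here, so reads of both strands may be counted there.

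Rgs7, the R7 member, works as an obligate dimer with the G protein beta subunit Gnb5 and acts on Go in neurons. Its saline libraries were very close together, at 1530, 1542 and 1575 normalised reads (lowest, median, highest), while its cocaine libraries ran over 1503, 1651 and 1715. In cocaine 1, 3, 5 and 6 Rgs7 stood above every saline library, and in cocaine 4 below every one. Having 4 or more cocaine libraries above every saline library was found for 1.67 percent of the tested genes, a count looked at after the values were seen. The means were 1632 ± 82.9 in cocaine and 1545 ± 15.6 in saline libraries (SD, n = 6 each), a log2 difference of 0.08 ± 0.06 (SE, limma unadjusted p = 0.213, adjusted p = 1.00). The exact permutation test gave p = 0.0455, two-sided and not adjusted for the 10 members.

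Gnb5, the partner of Rgs7, followed it from library to library. Gnb5 averaged 2738 ± 217 normalised reads in cocaine and 2554 ± 89.6 in saline libraries (SD, n = 6 each; log2 0.10 ± 0.07 SE, exact permutation p = 0.0866). Over the 12 libraries Pearson's r between Rgs7 and Gnb5 was 0.89 (permutation p = 0.00012, adjusted over 3 relations p = 0.00036) and Spearman's rho 0.85 (p = 0.00091, adjusted p = 0.00273). Without cocaine 1 and cocaine 5, the libraries farthest from the median of Rgs7, r was 0.80. It was 0.92 within the cocaine libraries and 0.39 within the saline libraries, whose Rgs7 values hardly varied. Of all tested genes 2 had a higher r with Rgs7 than Gnb5 did. The membrane anchor of the complex, Rgs7bp (r = -0.23, permutation p = 0.474), and the orphan receptor that recruits it, Gpr158 (r = -0.22, permutation p = 0.488), had no relation with Rgs7 past the threshold (adjusted p = 0.488 for each, and Spearman's rho was -0.15 with p = 0.635 and -0.13 with p = 0.701, adjusted p = 0.701 for each). Without the same 2 libraries their r was 0.18 for Rgs7bp and 0.25 for Gpr158.

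Rgs10, the smallest R12 protein, is known in brain mainly from microglia. It had 220, 256 and 332 normalised reads (lowest, median, highest) in cocaine libraries and 211, 274 and 485 in saline libraries. The value of 485 belongs to saline 5, the library with choroid plexus transcripts, and the next saline library stood at 281. The difference of -0.13 ± 0.17 (log2, SE; exact permutation p = 0.580) rests on that library: without it, the difference was 0.02. Microglia markers, 11 in all, had scores from -0.11 to 0.02 in cocaine libraries and from -0.08 to 0.17 in saline libraries (log2), and 2 of the 11 were higher and 9 lower in cocaine libraries. Over the 12 libraries Rgs10 and this score had r = 0.67 (permutation p = 0.0241, adjusted p = 0.0861) and rho = 0.70 (permutation p = 0.0153, adjusted p = 0.0638), and r = 0.71 without saline 1 and saline 5. The part of microglia in the values of Rgs10 was not tested.

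Rgs12 and Rgs14, larger R12 proteins that also carry a GoLoco motif which holds inactive Gi alpha, showed differences close to 0. Rgs12 had 567, 637 and 765 normalised reads (lowest, median, highest) in cocaine libraries and 475, 671 and 806 in saline libraries, with 1 of 6 cocaine libraries above the saline median. Rgs14, known in rodents as a regulator of plasticity in the CA2 field of hippocampus, had 906, 1138 and 1226 in cocaine libraries and 873, 1087 and 1266 in saline libraries. For both genes the cocaine range lay inside the saline range. The differences were -0.04 ± 0.12 for Rgs12 and 0.05 ± 0.11 for Rgs14 (log2, SE). Without saline 2 that of Rgs12 was 0.020, and without saline 1 that of Rgs14 was -0.00059. An antisense transcript shares 467 of the 8487 exon bases of Rgs12.

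Rgs17 and Rgs20, the RZ proteins, which act on the Gi class and on Gz, had differences within their spread. Rgs17 had 931, 1080 and 1451 normalised reads (lowest, median, highest) in cocaine libraries and 735, 1122 and 1536 in saline libraries, so the libraries of either group differed among themselves by far more than the groups did (log2 0.05 ± 0.19 SE). The sign of that difference turned without cocaine 2, cocaine 3, saline 5 or saline 6, one at a time, to -0.068 at the lowest. Rgs20 was steadier, at 351, 379 and 401 in cocaine libraries and 358, 394 and 453 in saline libraries. Of the 6 cocaine libraries 1 exceeded the saline median of Rgs20, and the means were 378 ± 16.7 in cocaine and 404 ± 37.5 in saline libraries (SD, n = 6 each; log2 -0.09 ± 0.08 SE, exact permutation p = 0.188). Exons of Rgs20 and Atp6v1h, on opposite strands, share 127 of the 4239 exon bases of Rgs20, and Atp6v1h had 3750 normalised reads on average in cocaine and 3543 in saline libraries.

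**Figure D3:**
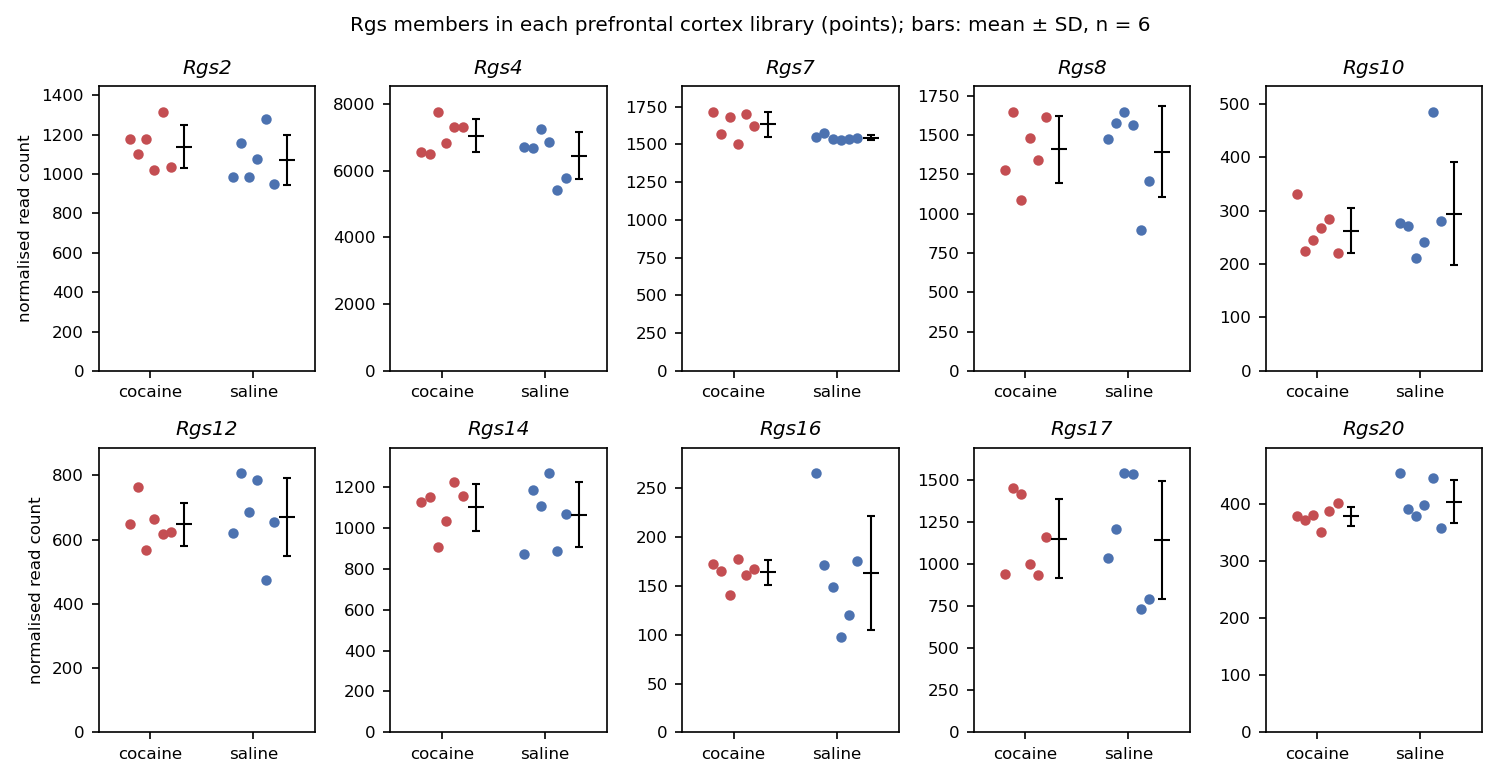
Normalised read count of each member in the 12 libraries (points, cocaine left, saline right) with mean and SD (bars, n = 6). The groups overlap in all 10 panels. In Rgs7 the saline points lie within 1530 to 1575, and in Rgs10 saline 5 stands at 485.

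The members differed in how much they varied between libraries of 1 group. In cocaine libraries the SD of log2 values ran from 0.06 for Rgs20 and 0.07 for Rgs7 to 0.29 for Rgs17. In saline libraries it ran from 0.01 for Rgs7 to 0.46 for Rgs17 and 0.49 for Rgs16. No tested gene had a smaller saline SD than Rgs7, and its SD of 15.6 normalised reads is below the 39.3 that counting error alone gives for its mean. Rgs16 went the other way: its SD was 12.7 in cocaine libraries, about the 12.8 of counting error, and 58.1 in saline libraries. The cocaine SD was the smaller of the pair in 9 of 10 members and in 55.4 percent of all tested genes. Saline 5 was the lowest or highest saline library in 6 of the 10 members, and without it the cocaine SD was smaller in 6 members and in 45.4 percent of tested genes. These spreads are a description, without a test.

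Across libraries the members did not move as a block. Of the 45 pairs 2 had an adjusted permutation p under 0.05 for Pearson's r, and 1 of those also for Spearman's rho. Rgs10 and Rgs17 ran opposite to each other (r = -0.80, permutation p = 0.00034, adjusted p = 0.0153; rho = -0.87, p = 0.00053, adjusted p = 0.0238). Their r was -0.70 without saline 3 and saline 5, the libraries farthest from the median of Rgs10, and -0.78 within the cocaine and -0.81 within the saline group. Rgs8 and Rgs12 rose and fell together (r = 0.82, permutation p = 0.00077, adjusted p = 0.0173; rho = 0.72, p = 0.0107, adjusted p = 0.135). That relation rests partly on cocaine 3 and saline 5, without which r was 0.49. The count of pairs past the threshold was 0 without cocaine 2 or without saline 5, 4 without cocaine 5, 5 without saline 1 and 6 without cocaine 3.

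**Figure D4:**
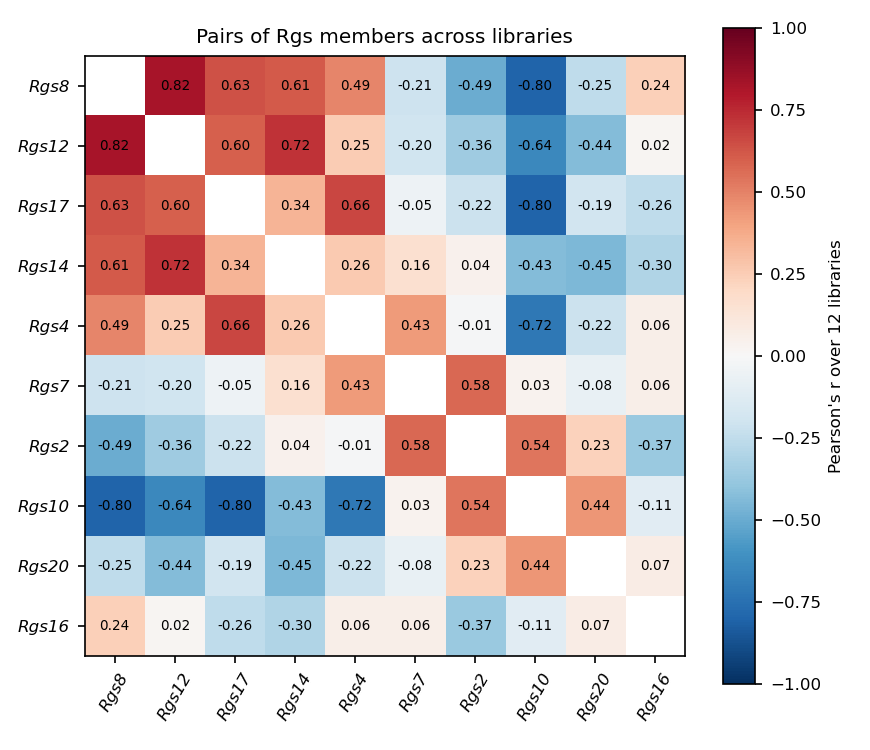
Pearson's r over 12 libraries for every pair of members (colour and printed value). Rgs8, Rgs12, Rgs17 and Rgs14 are positive with each other (0.34 to 0.82), and all 4 are negative with Rgs10 (-0.80 to -0.43). Without saline 5 these ranges were 0.13 to 0.65 and -0.76 to -0.09.

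Rgs17, Rgs8 and Rgs10 moved between libraries together with the balance of long and short transcripts. Rgs16, with 2339 exon bases the member that varied most among saline libraries, did not (r = -0.15, permutation p = 0.641, adjusted p = 0.795, and rho = -0.20, permutation p = 0.545, adjusted p = 0.757). A length tilt was computed for each library as the median log2 deviation of the 2910 longest protein-coding genes tested (6886 exon bases or more) minus that of the 2911 shortest (2810 or fewer). By their lengths Rgs8, Rgs12 and Rgs17 are among these longest genes and Rgs10 and Rgs16 among the shortest. A relation of these members with the tilt is therefore partly built in, and its p-values are given as a description. It ran from -0.37 to 0.32 in cocaine libraries and from -0.40 to 0.39 in saline libraries and did not separate the groups (exact permutation p = 0.773). Rgs17, with 8298 exon bases, followed it closely (r = 0.88, permutation p = 0.00027, adjusted p = 0.00675; rho = 0.87, permutation p = 0.00039, adjusted p = 0.00683), as did Rgs8 with 9640 (r = 0.79, permutation p = 0.00147, adjusted p = 0.0184; rho = 0.88, permutation p = 0.00037, adjusted p = 0.00683). Rgs10, at 1711 exon bases the shortest member, went the opposite way (r = -0.79, permutation p = 0.00026, adjusted p = 0.00675, and rho = -0.88, permutation p = 0.00041, adjusted p = 0.00683). Rgs12, with 8487 exon bases, fell just short of the threshold (r = 0.68, permutation p = 0.0127, adjusted p = 0.0530, and rho = 0.71, permutation p = 0.0117, adjusted p = 0.0534). Without cocaine 1 and saline 5, which lie farthest from the median tilt, r was 0.85 for Rgs17, 0.74 for Rgs8 and -0.75 for Rgs10. Within groups, r for Rgs17 was 0.72 in cocaine and 0.99 in saline libraries. These p-values are adjusted over 50 relations, those of 10 members with 5 library scores, and the tilt was defined after the data had been seen. How many of all tested genes follow the tilt as closely was not counted, so the relation is not shown to be particular to these members. The tilt moved with Rgs10 and with Rgs17, and its part in their opposite course was not tested.

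**Figure D5:**
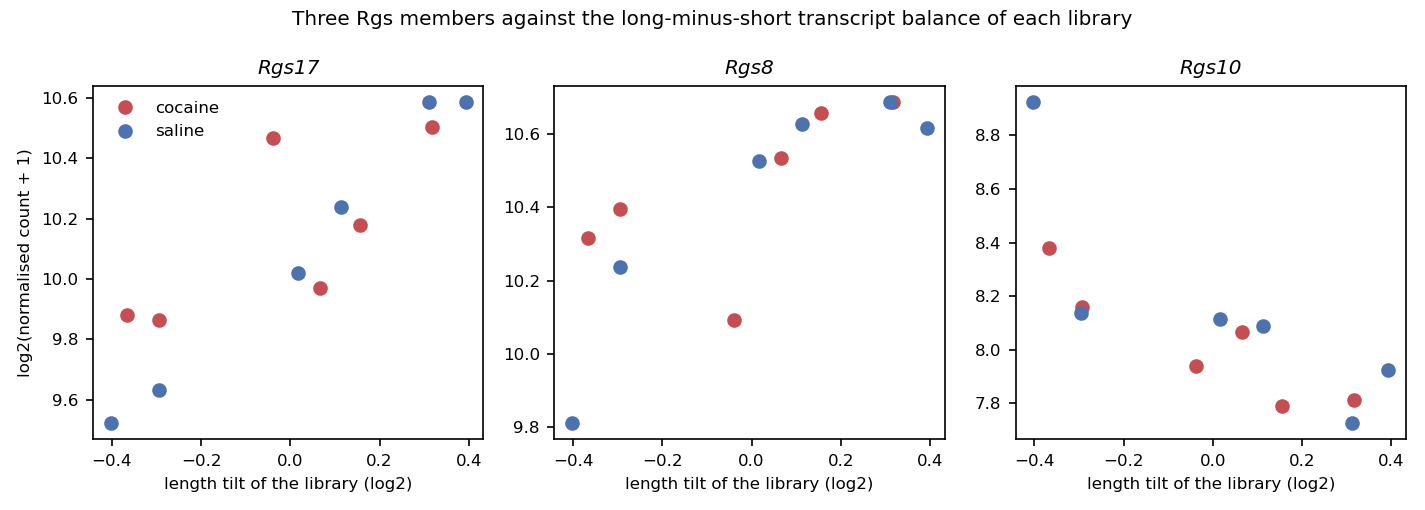
Rgs17, Rgs8 and Rgs10 (log2(normalised count + 1)) against the length tilt of each library (log2, long minus short genes), with cocaine and saline libraries in different colours. Rgs17 and Rgs8 rise with the tilt (r = 0.88 and r = 0.79) and Rgs10 falls (r = -0.79), with the same sign within either group.

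Of the other relations with library scores 4 passed by r. Rgs14 ran against the 12 oligodendrocyte markers (r = -0.77, permutation p = 0.00377, adjusted p = 0.0377; rho = -0.79, permutation p = 0.00305, adjusted p = 0.0305; r = -0.63 without saline 1 and saline 4) and with the 8 excitatory neuron markers (r = 0.83, permutation p = 0.00131, adjusted p = 0.0184; rho = 0.72, permutation p = 0.0105, adjusted p = 0.0523; r = 0.64 without saline 1 and saline 5). Its relation with microglia markers (r = -0.74, permutation p = 0.00606, adjusted p = 0.0433; rho = -0.62, permutation p = 0.0351, adjusted p = 0.125) was -0.33 without saline 1 and saline 5 and so rests on them. Rgs7 followed the immediate-early score (r = 0.75, permutation p = 0.00501, adjusted p = 0.0417; rho = 0.74, permutation p = 0.00781, adjusted p = 0.0434; r = 0.73 without cocaine 5 and saline 6), with r = 0.71 within cocaine and 0.30 within saline libraries. The pooled r also holds the difference in that score between the groups, given with Rgs2. By rho 9 relations passed, 5 of them also by r. The others were Rgs8, Rgs10 and Rgs17 with excitatory neuron markers (rho = 0.79, permutation p = 0.00366, adjusted p = 0.0305 for Rgs8; rho = -0.74, permutation p = 0.00782, adjusted p = 0.0434 for Rgs10; rho = 0.80, permutation p = 0.00243, adjusted p = 0.0304 for Rgs17) and Rgs8 with microglia markers (rho = -0.78, permutation p = 0.00491, adjusted p = 0.0351). Pearson's r for these 4 was 0.69, -0.66, 0.72 and -0.57, with adjusted permutation p = 0.0530 for the first 3 and 0.173 for the last. The oligodendrocyte score, with 0 of its 12 markers higher in the cocaine group, ran from -1.04 to 0.96 in cocaine and from -1.51 to 1.23 in saline libraries, and the part of tissue composition in the values of Rgs14 was not tested.

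For each member the tested genes most like it over the 12 libraries were listed by Pearson's r. The closest were Cadps (r = 0.98), a factor for release of dense-core vesicles, and Herc3 (r = 0.98) for Rgs17, and Pip4k2c (r = 0.98), a phosphoinositide kinase, and Ank1 (r = 0.97) for Rgs8. Rgs14 was most like Svop (r = 0.96), a synaptic vesicle protein, and Spryd3 (r = 0.95), and Rgs12 was most like Atg4b (r = 0.95), a protease of autophagy, and Galnt14 (r = 0.94). Rgs10 had Khdrbs1 and Pgls (r = 0.92 for both), Rgs7 had Sms, the spermine synthase, and Cdip1 (r = 0.92 for both), and Rgs4 had Ube2e1 (r = 0.89) and Fkbp3 (r = 0.88). Rgs2 was most like Tmem183a and Dph5 (r = 0.88 for both). The weakest likeness was that of Rgs16, with Egln1 (r = 0.83) and Slc9a9 (r = 0.82), and of Rgs20, with Gpbp1l1 (r = 0.78) and Clec2d (r = 0.74). These r values are the highest among the tested genes, with members and unnamed predicted genes left out. They describe the libraries, with no test.

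No gene of the G protein machinery around the members passed the test, and 0 of all 13016 tested genes did. In 8 lists with 87 different genes, 65 genes were tested, of which 31 were higher and 34 lower in cocaine libraries, with a median of -0.01 (log2). By limma 0 had an adjusted and 0 an unadjusted p under 0.05, where 0 percent and 1.14 percent of all tested genes did. In the list of other RGS-domain genes 13 were tested, among them the membrane anchor Rgs7bp, which has no RGS domain. Of these 6 were higher and 7 lower, led by Axin2 (0.09 ± 0.10), a scaffold of the Wnt pathway, and Rgs11 (-0.20 ± 0.25, log2, SE), an R7 protein. G alpha subunits were lower in 9 and higher in 3 of 12, among them Gnas, the stimulatory alpha subunit (-0.11 ± 0.14), and Gnal, its relative in olfactory and striatal neurons (-0.08 ± 0.10). G beta and gamma subunits were higher in 9 and lower in 4 of 13. Gng4, a gamma subunit, had 890.3 ± 42.6 normalised reads in cocaine and 969.7 ± 75.5 in saline libraries (SD, n = 6 each; log2 -0.12 ± 0.07 SE, exact permutation p = 0.0541). The 3 tested partners of R7 proteins, Gnb5, Rgs7bp and Gpr158, were all higher, by 0.02 to 0.10.

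Downstream and regulatory genes had differences of the same size. Adcy8, a calcium-stimulated adenylyl cyclase, had the smallest limma p of the 65 genes (unadjusted p = 0.0959). It had 503 ± 71.9 normalised reads in cocaine and 432 ± 65.9 in saline libraries (SD, n = 6 each, log2 0.22 ± 0.12 SE). By the exact permutation test its p was 0.119, and Gng4 (p = 0.0541) and Gnb5 (p = 0.0866) had smaller ones. Adcy5, the main cyclase of striatal neurons, differed by -0.12 ± 0.16, and 4 of 8 cyclases were higher and 4 lower. Receptor kinases and arrestins were lower in 5 of 6, with Grk3 at -0.08 ± 0.09 and Grk5 at -0.09 ± 0.15. Among GoLoco proteins and G alpha chaperones, 3 higher and 3 lower, Ric8a, a chaperone of G alpha subunits, differed by 0.10 ± 0.07 and Gpsm2 by -0.10 ± 0.11. Of the phospholipase C beta and GIRK genes 4 were higher and 2 lower, with Plcb3 at -0.16 ± 0.11 and Kcnj3, a subunit of the potassium channel opened by G beta gamma, at 0.09 ± 0.09 (log2, SE).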

How the data were processed

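The authors deposited 1 table with values per gene and library, gene lengths, group means and their own comparison (log2 fold change, raw and adjusted p-value), per the file headers. The submitters' processing notes name HISAT2 2.0.5 and a human build, hg38; the sources used here name no counter, strand setting or annotation. Gene IDs and coordinates are mouse (GRCm38): start and end of all 10 members equal those in GENCODE M21. The file is named for FPKM, but the deposited values are a signal not divided by length: reads over a library's size factor. Within each library 100 percent of values were whole multiples of 1 read (tolerance 0.01 read), giving 16.7 to 19.9 M recovered reads. The authors' log2 and p-value columns were matched by DESeq2 1.42.0 on those reads (3 genes called by each).

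Groups came from the treatment labels. The labels also name a mesenchymal cell line and a time tag (day 0 or 5) that do not match cortex; neither formed groups. The test was limma 3.58.1 (R 4.3.3, variance trend, no covariates) on log2(value + 1) over the 13016 genes whose mean FPKM, computed here, reached 1, with Benjamini-Hochberg adjustment at 0.05. The log scale with pseudocount 1 understates changes of low genes. Exact permutation tests used all 924 ways to label 6 of the 12 libraries, two-sided, with a smallest possible p of 0.00216. Correlations used 100000 permutations, two-sided. Named genes were all members, the 2 with the smallest limma p in each pathway list, and the 2 most like each member. Members and unnamed predicted genes were left out of the search for the most alike. edgeR 4.0.16 was run on recovered reads. The scripts were tested on simulated data. The members and lists were chosen with earlier results of these data known.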

Additional observations from a re-analysis of the deposited data

Results flagged for a closer look

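In 20 groups of 6 libraries (10 members in 2 groups) 2 libraries lay far from the others by Dixon's test at the 95% level, where chance flags about 1 in 20 groups. Rgs10 in saline 5 stood at 485 normalised reads, with the nearest saline library at 281, a gap of 0.746 of the range. Rgs7 in saline 2 stood at 1575, with the nearest at 1547, a gap of 0.629 of a very narrow range.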

How the results depend on the processing

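Under 16 alternatives and without each of the 12 libraries, 0 members passed the adjusted threshold (with a mean FPKM of at least 5, Rgs12 and Rgs16 were not tested). Over all genes tested, 0 passed in limma and edgeR under each alternative and from 0 to 0 when a library was left out, while DESeq2 on the reads called 3. At an unadjusted p under 0.05 limma had 149 of 13016 genes, edgeR 253 of 16057 and DESeq2 428 of 28827. With the replicate block 0 genes and 0 members passed, Rgs4 differed by 0.13 and 150 genes had an unadjusted p under 0.05. Libraries share only a number, since r between same-numbered libraries ran from -0.40 to 0.44. No cocaine library correlated best with the saline library of its own number. Differences of Rgs2, Rgs4, Rgs7 and Rgs20 kept their sign throughout, with ranges over left-out libraries of 0.05 to 0.14, 0.08 to 0.17, 0.06 to 0.10 and -0.12 to -0.05. Library weights lowered Rgs2 to 0.014, Rgs4 to 0.089 and Rgs7 to 0.044. The others changed sign for at least 1 library: Rgs8 from -0.091 to 0.10, Rgs10 from -0.21 to 0.025, Rgs12 from -0.13 to 0.020, Rgs14 from -0.00059 to 0.11, Rgs16 from -0.057 to 0.23 and Rgs17 from -0.068 to 0.14. Rgs16 was -0.0027 by edgeR with no count filter and Rgs17 -0.065 with library weights; the cause was not tested. With the length tilt as a covariate, chosen after seeing the data, Rgs4 differed by 0.15 (limma unadjusted p = 0.0454). Under that covariate 502 of 13016 genes had an unadjusted p under 0.05, against 149 in the main fit, and 0 passed the adjusted threshold. The 2 pairs past the threshold became 4 with deviations from the group means, and from 0 to 6 without 1 library. Depth limits Rgs16 most, with 92 to 270 reads.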
